A study of Mus musculus with 4 samples.

Results

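On a gene expression array, a probe set whose short probes match the transcripts of more than 1 gene gives a single value for all of them. Among the 35556 probe sets measured in ILC87-Ik1-ER cells, 1621 list 2 or more gene symbols in the array annotation, and these are the probe sets described here. They were taken by a rule that reads the annotation alone and not the measured values, though earlier results of these data were known. Together they list 2032 distinct genes in 800 combinations of symbols. For 1405 of these genes the array has no probe set with 1 symbol, so that the shared value is the reading of the gene that these data hold.

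ILC87 is a T-cell line from a thymic tumour of an Ikaros f/f Lck-cre+ mouse, in which the Cre recombinase driven by the *Lck* promoter removes Ikaros from T cells. All 4 samples are of ILC87 cells that carry the retrovirus MigR1:Ik1-ER, which encodes full-length Ikaros1 joined to the hormone-binding part of the oestrogen receptor, together with green fluorescent protein (GFP), and GFP-positive cells had been sorted. Cells of 2 samples received 4-hydroxytamoxifen (4OHT) at 100 nM, which moves Ik1-ER into the nucleus, and those of the other 2 its vehicle ethanol (EtOH), in both cases for 24 h. The comparison asks which mRNA levels change when Ikaros activity is induced in Ikaros-null T cells. No array of 4OHT-treated cells without Ik1-ER was analysed here, so that effects of 4OHT itself and of Ik1-ER cannot be told apart. The model is 1 line of tumour cells. Its strain is labelled C57BL/6, while the methods of the study put mice of this genotype on a background mixed with 129Sv. Each array was hybridised with labelled cDNA from 150 ng of total RNA, and the deposited values are on a log2 scale after robust multi-array average (RMA) processing, with array medians between 7.11 and 7.16. The T-lineage markers measured by a single-symbol probe set (7 genes, among them *Cd3e* and *Thy1*) lay between 10.56 and 13.30, and 4 B-lineage markers between 4.69 and 6.79. The 4OHT arrays were compared with the EtOH arrays by limma over all probe sets, and one with an adjusted p (Benjamini-Hochberg) under 0.05 was called, lower or higher. Whether the arrays of a treatment stand for separate cultures is not stated, and the p-values therefore cover the spread between 4 arrays that may differ for technical reasons only. With 2 arrays a side, an exact permutation test (two-sided) could not give a p under 0.33, and precision is set by how few arrays there are.

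Genes of 1 family arise by duplication, and recent copies can be so alike that no short probe separates them. Variable segments of the T-cell receptor α-chain, class I genes of the H2-T region and *Ly6* antigen genes are such tandem families in the mouse. Processed pseudogenes, which are copied from mRNA and inserted elsewhere in the genome, also match the probes of abundant transcripts such as those of ribosomal proteins and *Gapdh*. A further kind of shared probe set comes from genes that overlap, as a small nucleolar RNA does with its host gene.

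By their names, 742 of the 1621 probe sets list named genes that share a stem, and 321 list named genes of differing stems. In 419, 1 named gene stands beside gene models (symbols such as Gm5424 or those ending in Rik). A further 131 list gene models only, and in 8 the symbols are now 1 gene. Stems were read from spelling alone, so that a shared stem does not by itself make genes paralogues. Symbols were brought up to date by their Entrez numbers through RefSeq, which held 6853 of the 6891 listed, and the gene order of assembly GRCm38.p6 gave their places. At least 2 of the listed genes overlapped for 122 probe sets and lay within 3 places of each other in the gene order for 670, and for 426 the listed genes were on different chromosomes. A pseudogene stood among the genes of 500 probe sets. The number of listed symbols was 2 for 725 probe sets, 3 for 294, 4 for 150 and 5 or more for 452, with up to 20 in 1 list. The classes differed in level. The median over the 4 arrays was 5.71 for shared stems, where olfactory receptors and X-linked testis genes are frequent, 10.08 for differing stems and 10.61 for 1 named gene with gene models, against 7.13 over all probe sets. Probe sets whose genes lie on different chromosomes had a median of 12.47.

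Genes that share probes can differ in how alike their promoters are. Windows of 300 bases around the start of a gene, most of them upstream of it, were taken from RefSeq (GRCm38.p6). Windows on the chromosome of the desmoglein genes *Dsg1a*, *Dsg1b* and *Dsg1c* were left out. Of the 41 genes listed by the called shared-stem probe sets, 19 had a window among the rest. Windows are shown for the 3 pairs, of 17 compared, that were most alike over their length. Capitals mark AGGAA and TGGGAA, which hold the cores GGAA and GGGA known to bind Ikaros, on either strand (TTCCT and TTCCCA when read on the other). Neither motif contains the other, although end letters can be shared. The windows are chr15:75048788-75049087 (minus strand) for *Ly6c1*, chr15:75111922-75112221 (minus) for *Ly6c2*, chrX:73117653-73117952 (minus) for *Xlr5a*, chrX:73148591-73148890 (plus) for *Xlr5b*, chr17:36032652-36032951 (minus) for *H2-T23* and chr17:36111627-36111926 (minus) for *H2-T-ps*.
Ly6c1: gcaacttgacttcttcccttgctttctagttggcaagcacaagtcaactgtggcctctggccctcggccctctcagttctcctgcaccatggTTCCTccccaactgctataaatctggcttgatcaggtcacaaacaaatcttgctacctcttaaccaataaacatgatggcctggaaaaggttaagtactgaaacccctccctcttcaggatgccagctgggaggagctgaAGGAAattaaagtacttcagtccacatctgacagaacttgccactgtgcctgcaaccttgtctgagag
Ly6c2: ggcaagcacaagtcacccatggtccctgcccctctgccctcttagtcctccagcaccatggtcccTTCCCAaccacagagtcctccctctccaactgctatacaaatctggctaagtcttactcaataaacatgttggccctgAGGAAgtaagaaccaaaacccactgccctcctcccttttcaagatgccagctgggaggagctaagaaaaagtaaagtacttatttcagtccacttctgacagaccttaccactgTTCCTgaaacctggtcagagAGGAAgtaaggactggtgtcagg
Xlr5a: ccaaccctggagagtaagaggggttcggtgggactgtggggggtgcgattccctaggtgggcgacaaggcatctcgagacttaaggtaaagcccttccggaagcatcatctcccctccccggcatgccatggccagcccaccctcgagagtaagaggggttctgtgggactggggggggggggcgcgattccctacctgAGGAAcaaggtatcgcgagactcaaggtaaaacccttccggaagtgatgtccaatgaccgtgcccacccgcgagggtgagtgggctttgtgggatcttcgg
Xlr5b: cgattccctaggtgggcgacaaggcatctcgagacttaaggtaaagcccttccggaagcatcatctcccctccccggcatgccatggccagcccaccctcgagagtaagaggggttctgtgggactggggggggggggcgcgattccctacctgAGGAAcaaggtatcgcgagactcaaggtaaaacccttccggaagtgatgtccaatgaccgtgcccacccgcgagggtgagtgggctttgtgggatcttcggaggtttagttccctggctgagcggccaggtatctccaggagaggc
H2-T23: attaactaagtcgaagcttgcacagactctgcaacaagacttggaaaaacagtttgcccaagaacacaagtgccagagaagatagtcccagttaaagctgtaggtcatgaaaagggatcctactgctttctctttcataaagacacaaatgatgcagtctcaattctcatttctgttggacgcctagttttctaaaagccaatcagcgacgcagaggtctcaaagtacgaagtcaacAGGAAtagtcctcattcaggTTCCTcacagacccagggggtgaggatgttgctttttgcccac
H2-T-ps: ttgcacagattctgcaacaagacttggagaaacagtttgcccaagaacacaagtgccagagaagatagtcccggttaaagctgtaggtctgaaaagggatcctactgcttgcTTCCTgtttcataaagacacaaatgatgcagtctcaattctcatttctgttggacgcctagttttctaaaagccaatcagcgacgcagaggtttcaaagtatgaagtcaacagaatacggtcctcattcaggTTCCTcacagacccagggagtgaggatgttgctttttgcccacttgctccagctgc
The *Xlr5a* and *Xlr5b* windows were identical over the 255 bases by which they overlap. Those of *H2-T23* and *H2-T-ps* matched at 273 of 289 aligned positions (94.5%), and those of *Ly6c1* and *Ly6c2* at 208 of 282 (73.8%). The *Xlr5c* window aligned with *Xlr5a* or *Xlr5b* over no more than 12 positions. Among all 14 pairs not shown, 6 of zinc finger genes aligned over 204 positions or more with 55.1% to 60.5% identity. The other 8, which include *Rsph3b* with *Rsph3a* and *Evi2* with *Evi2b*, aligned over 36 positions at most. AGGAA occurred in all 6 windows, and TGGGAA in that of *Ly6c2* alone. Another window of *Ly6c1*, from a different start, held 5 matches to AGGAA, against 2 in the one shown. Of 27025 promoters in the table (the first start of each gene), 66.8% hold AGGAA and 25.5% hold TGGGAA on either strand, so that the first is in most promoters whatever their gene. A match is a run of letters and no measured binding site.

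After 24 h of 4OHT, 20 of the 1621 probe sets were called lower and 27 higher. Over all 35556 probe sets 2.17% were called lower and 0.987% higher, and the shares among these probe sets were 1.23% and 1.67%. The 47 called probe sets list 27 combinations of symbols, 13 lower and 14 higher. In each of the 47 both 4OHT arrays lay on the same side of both EtOH arrays, a gap that calls from so few arrays favour. Over all 35556 probe sets both lay below in 8238 and above in 10207. At an unadjusted p under 0.05 there were 111 lower (6.85%) and 121 higher (7.46%), against 10.1% and 8.44% over all probe sets. The median log2 fold change over the 1621 was -0.0047, against 0.0237 over all probe sets. All 22 probe sets that differed by 2-fold or more were called. The calls rest on 4 arrays: without EtOH array 1 or EtOH array 2 none was called, without 4OHT array 1 there were 7 lower and 16 higher, and without 4OHT array 2 there were 6 and 3. Leaving the 12146 probe sets without a symbol out of the fit raised the calls to 79 lower and 79 higher.

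**Figure D1:**
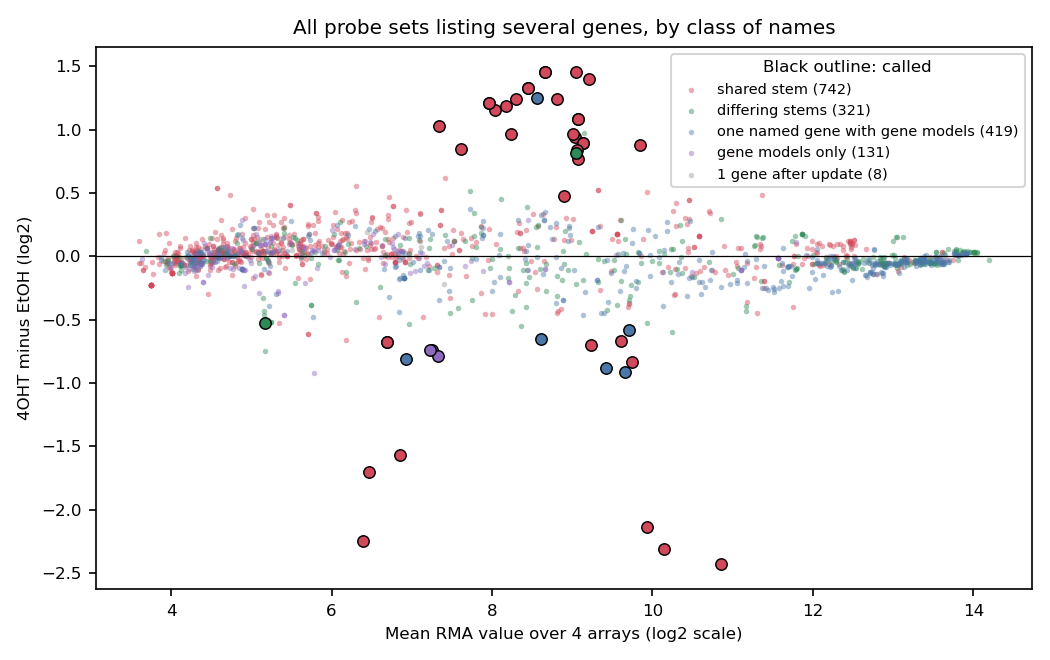
Each of the 1621 probe sets by its mean RMA value over the 4 arrays (x axis, log2 scale) and its difference, 4OHT minus EtOH (y axis, log2), coloured by the class of its names, with the number per class. Black outlines mark the 47 called probe sets: 27 lie above 0, between 0.48 and 1.46, and 20 lie below 0, between -0.53 and -2.43, while the brightest probe sets, over 12, stay close to 0.

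The largest decreases were those of *Ifi211*/*Ifi204*, *Ly6c2*/*Ly6c1* and *Xlr5*. The probe set of *Ifi211* and *Ifi204*, members of the interferon-inducible p200 family whose products bind DNA, was at 12.05 and 12.10 on the EtOH arrays and at 9.79 and 9.49 on the 4OHT arrays. Its log2 fold change was -2.43 (SE 0.12, adjusted p = 0.0084 by limma), a 5.40-fold decrease and the largest of the 1621. *Ly6c2* and *Ly6c1* encode the Ly6C antigens, small proteins held on the surface of myeloid cells and of some T cells by a lipid anchor. Their first probe set gave 11.30 and 11.31 with EtOH and 8.94 and 9.05 with 4OHT. The second gave 11.00 and 11.00 against 8.85 and 8.86. The groups were far apart in both (log2 fold changes -2.31 ± 0.08 and -2.14 ± 0.07, SE; adjusted p = 0.00433 and 0.00417). All of these probe sets were well above the array medians with EtOH and stayed above them with 4OHT. In a bulk sample a lower level in each cell and fewer cells with the transcript cannot be told apart. Since Ly6C also marks myeloid cells, the 5 myeloid markers were read beside it: they lay between 5.53 and 7.28 on all arrays, their log2 levels summed to 32.4 to 32.8 with EtOH and 32.4 to 32.6 with 4OHT, and *Lyz2* was called lower and *Itgam* higher. Their part in the result was not tested.

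The *Xlr5* genes belong to an X-linked family of lymphocyte-regulated genes related to a protein of meiotic chromosomes. The first probe set of *Xlr5b*, *Xlr5a* and *Xlr5c* was at 7.42 and 7.61 with EtOH and at 5.30 and 5.23 with 4OHT. The second was at 7.29 and 7.36 against 5.70 and 5.54. In both the 4OHT arrays were far below the EtOH arrays (log2 fold changes -2.25 and -1.71, SE 0.09 each, adjusted p = 0.00644 and 0.0084), with a fall from near the array medians to below them. The related *Xlr4* and *Xlr3* genes have shared probe sets of their own, and none of the 6 was called: the 3 of *Xlr4* had log2 fold changes of -0.37, -0.37 and -0.40 from a level near 9.9, and the 3 of *Xlr3* of -0.14, 0.01 and 0.01 near 5. Among all 95 probe sets of X-linked and testis families, 2 were lower and none higher, with a median of 0.03 and 94.7% of them under a mean of 6. The desmoglein genes *Dsg1b*, *Dsg1c* and *Dsg1a*, which encode cadherins of the desmosome, shared 1 probe set at 7.69 and 7.59 with EtOH and 6.00 and 6.14 with 4OHT (log2 fold change -1.57, SE 0.09, adjusted p = 0.00952).

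**Figure D2:**
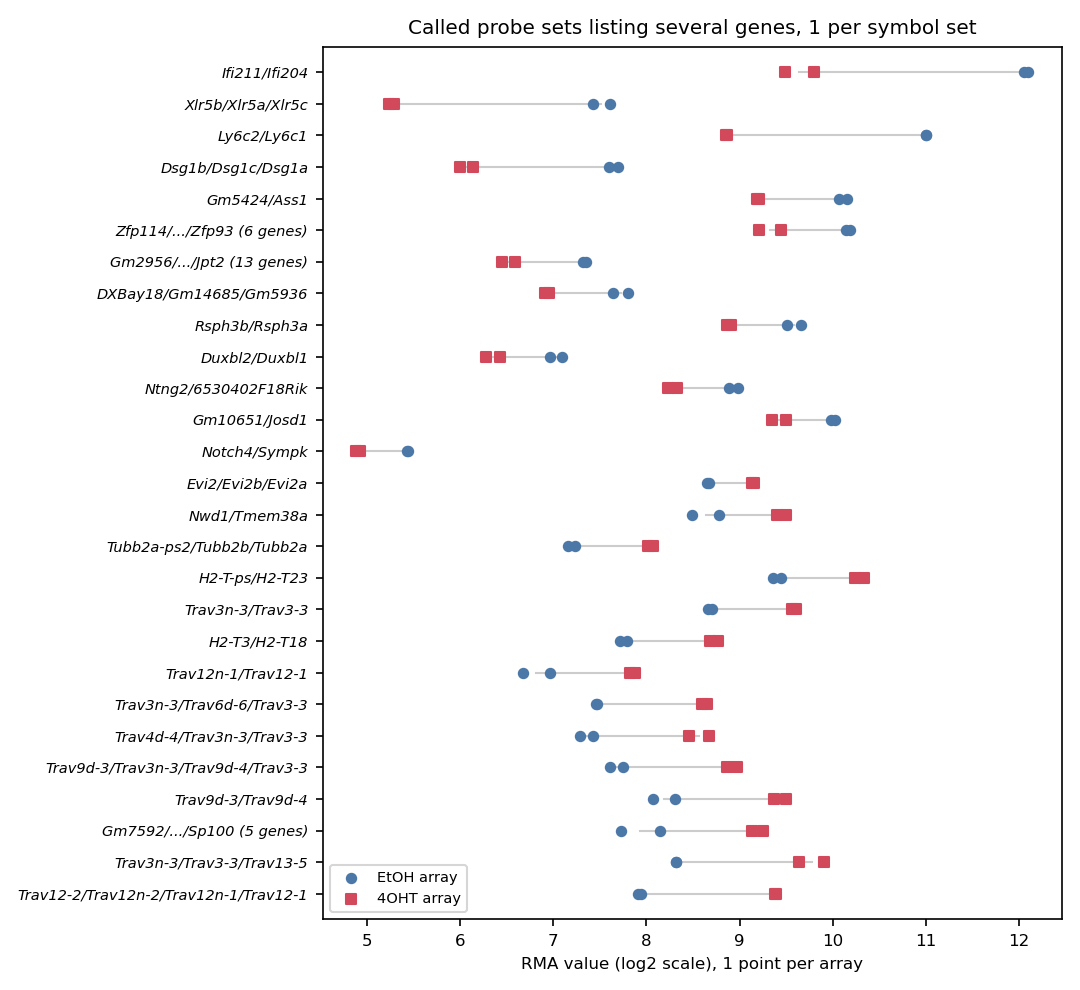
RMA values (x axis, log2 scale) of the called probe sets on each array, 1 probe set per combination of symbols, namely that with the lowest adjusted p; circles are the 2 EtOH arrays, squares the 2 4OHT arrays, and grey lines join the group means. The groups do not overlap in any of the 27 lines, a gap that calls from so few arrays favour. *Ifi211*/*Ifi204* spans from 12.1 to 9.49, and *Notch4*/*Sympk* lies at the dim end, near 5.

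The other lower probe sets changed by less than 2-fold. *Ass1*, the argininosuccinate synthase of arginine synthesis, is listed with Gm5424, which RefSeq gives as a transcribed pseudogene on another chromosome. Its 2 probe sets were at 10.07 and 10.15, and at 9.80 and 9.93, with EtOH, and at 9.21 and 9.19, and at 8.98 and 8.97, with 4OHT. They fell by 0.91 and 0.89 (SE 0.07 and 0.08, adjusted p = 0.0156 and 0.0184). A probe set of 6 zinc finger genes, *Zfp114*, *Zfp109*, *Zfp111*, *Zfp108*, *Zfp94* and *Zfp93*, fell by 0.83 (10.18 and 10.14 against 9.44 and 9.21, adjusted p = 0.0341). *Rsph3b* and *Rsph3a*, genes of a radial spoke protein of cilia, had 2 probe sets that fell by 0.70 and 0.67, from 9.66 and 9.51 to 8.90 and 8.87 in the first (adjusted p = 0.0332 and 0.0367). The double homeobox genes *Duxbl2* and *Duxbl1* had 3 probe sets, of which 2 hold the same values (7.09 and 6.97 against 6.43 and 6.27) and were lower by 0.68 (adjusted p = 0.0427), while the other stood at -0.48 and was not called (adjusted p = 0.0825). *Ntng2*, which encodes the membrane-anchored netrin-G2, overlaps the non-coding gene 6530402F18Rik, and their probe set was lower by 0.66 (8.88 and 8.99 against 8.23 and 8.33, adjusted p = 0.0362). The probe set of *Josd1*, a deubiquitinase gene, and its partner Gm10651, a pseudogene, fell by 0.58 (adjusted p = 0.0483). A probe set of *Jpt2* with 12 gene models fell by 0.81 (adjusted p = 0.0223). Other probe sets of the same combination stood at -0.48 and -0.28 and were not called (adjusted p = 0.0613 and 0.214). Of the 131 probe sets with gene models only, 3 were called, all of DXBay18, Gm14685 and Gm5936, which fell by 0.79, 0.74 and 0.74.

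A single lower probe set had names of differing stems, *Notch4*, a Notch receptor gene, with *Sympk*, the gene of a scaffold protein of mRNA 3′ processing on another chromosome. It was dim, at 5.45 and 5.43 with EtOH and 4.93 and 4.89 with 4OHT (log2 fold change -0.53, SE 0.07, adjusted p = 0.0389). The other 5 probe sets of *Notch4* and *Sympk* had log2 fold changes of -0.21 to -0.43 and were not called. *Erbb2* with *Sympk* had one of -0.53 (adjusted p = 0.0576).

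The increases were mostly of T-cell receptor segments. In a T cell, 1 *Trav* segment per rearranged allele is joined to a joining segment to form the α-chain gene, and segments that have not been rearranged can be transcribed at low level. Of 38 probe sets that list several *Trav* segments, 21 were called higher and none lower. Of these 38, 36 had both 4OHT arrays above both EtOH arrays, and 1 had both below. Over all 35556 probe sets, 10207 had both above and 8238 had both below. The probe sets are not separate readings, since only 27 of the 38 hold distinct values (16 of the 21 called) and they list 13 combinations of a few segments. Of the called, 15 list *Trav3-3* and 5 list *Trav12-1*. The EtOH arrays lay between 6.67 and 8.72 over the called probe sets, and the 4OHT arrays between 7.82 and 10.08.

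The largest of these increases was shared by *Trav12-2*, *Trav12n-2*, *Trav12n-1* and *Trav12-1*. Its probe set was at 7.94 and 7.91 with EtOH and 9.39 and 9.38 with 4OHT (log2 fold change 1.46, SE 0.07, adjusted p = 0.0082), and a second one of the same segments rose by 1.33 (adjusted p = 0.00986). *Trav12n-1* with *Trav12-1* alone had 2 probe sets, of which 1 rose by 1.03 (adjusted p = 0.0289) and the dimmer, at 5.87 and 6.20 with EtOH, had a log2 fold change of 0.55 and was not called. The probe set of *Trav9d-3* and *Trav9d-4* rose by 1.24, and those with *Trav3n-3* and *Trav3-3* added rose by 1.18 to 1.40. *Trav4d-4* with *Trav3n-3* and *Trav3-3* rose by 1.21, and *Trav6d-6* with them by 1.15. Those that add *Trav13-5* rose by 0.94, 1.08 and 1.46. *Trav3n-3* and *Trav3-3* without a further segment rose in 5 probe sets of 4 distinct values, by 0.77 to 0.97. Probe sets of this last pair also spread more widely than those of other combinations: the log2 fold changes ran from 0.05, at a level near 5.3, to 0.97, at a level near 9. This range of 0.914 was the largest among the 259 combinations with 2 or more distinct probe sets, where the median range was 0.032 and 255 did not exceed 0.5. A range can widen with the number of probe sets, which differed between combinations. Level did not order the changes of this pair throughout. Its brightest values with EtOH, 8.91 and 9.21, went with a log2 fold change of 0.53, and dim ones, 4.32 and 4.28, with 0.54, neither called.

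The 17 *Trav* probe sets that were not called had log2 fold changes of -0.14 to 0.55, and 12 of them an unadjusted p under 0.05. In 11 of the 17 both group means were under 7, below the array medians. Single-symbol probe sets exist for 7 *Trav* segments, and 3 of them were higher and none lower (median 0.73). The other T-cell receptor probe sets were few. *Trbv13-2* with *Trbv1*, of the β-chain, was at 10.08 and 10.08 with EtOH and higher on both 4OHT arrays (log2 fold change 0.42, adjusted p = 0.0596). The 3 of *Trgv6*, *Trgv4* and *Trgv2*, of the γ-chain, had log2 fold changes of -0.65, -0.40 and -0.45 (adjusted p = 0.0568, 0.0885 and 0.0603). In all 3 both 4OHT arrays were below both EtOH arrays. Whether α- and γ-chain probe sets differed from each other was not tested. The called T-lineage marker was *Cd3d*, which was lower.

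**Figure D3:**
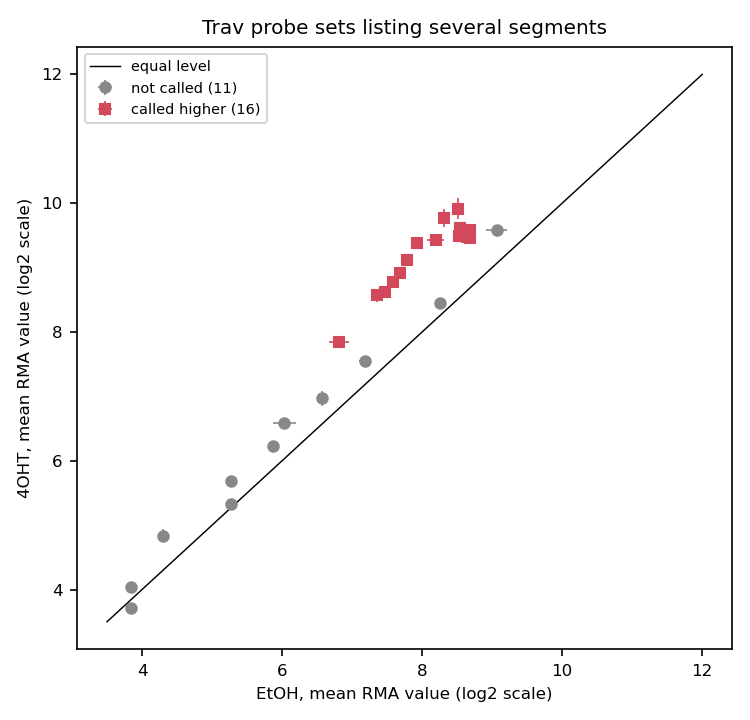
Mean RMA value of the 27 *Trav* probe sets with distinct values, EtOH on the x axis and 4OHT on the y axis (both log2 scale), with bars to the 2 arrays of each group and a line of equal level. The 16 called probe sets (squares) lie above the line, and most of the 11 others (circles) lie closer to it and at lower levels.

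The remaining 6 higher probe sets were of other genes. In the H2-T region, whose non-classical class I molecules are recognised by natural killer cells and by T cells of the gut, *H2-T3* with *H2-T18* (the thymus leukaemia antigens) rose from 7.80 and 7.72 to 8.69 and 8.77 (log2 fold change 0.97, SE 0.08, adjusted p = 0.0156). *H2-T23*, which encodes Qa-1, shared a probe set with *H2-T-ps* that rose from 9.36 and 9.45 to 10.23 and 10.33 (0.88, SE 0.08, adjusted p = 0.0189). *H2-T9*, *H2-T22* and *H2-T10* shared another, at 10.56 and 10.61 against 11.24 and 11.57, whose log2 fold change of 0.82 (SE 0.13) did not pass (adjusted p = 0.0526), while the single-symbol probe set of *H2-T10* was higher by 0.96 (adjusted p = 0.0224). The shared probe sets of the classical genes *H2-D1* and *H2-K1* had log2 fold changes of 0.23 and -0.15 and were not called. Among the 8 probe sets of the H2 locus, 2 were thus higher and none lower.

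*Sp100*, a gene of nuclear bodies, with 4 gene models rose from 8.15 and 7.72 to 9.25 and 9.13 (log2 fold change 1.25, SE 0.16, adjusted p = 0.0363). *Tubb2b* and *Tubb2a*, β-tubulin genes, with the pseudogene *Tubb2a-ps2* rose from 7.24 and 7.15 to 8.07 and 8.02 (0.85, SE 0.08, adjusted p = 0.018). The other 8 probe sets of tubulins and actins were not called. *Evi2*, *Evi2b* and *Evi2a*, overlapping genes first known as sites of retroviral insertion, rose from 8.67 and 8.65 to 9.16 and 9.13 (0.48, SE 0.07, adjusted p = 0.0461), the smallest change called. The single higher probe set of differing stems was that of the neighbours *Nwd1*, which encodes a protein with WD repeats, and *Tmem38a*, which encodes a cation channel of internal membranes (8.49 and 8.78 against 9.50 and 9.40, log2 fold change 0.81, SE 0.12, adjusted p = 0.0481). The EtOH arrays were the wider pair for both *Sp100* and *Nwd1*/*Tmem38a*.

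For 18 of the 27 called combinations no listed gene has a probe set of its own, among them *Ifi211*/*Ifi204*, *Ly6c2*/*Ly6c1*, *Xlr5*, *Ass1* and both of the H2-T region. In 9 combinations at least 1 gene does. Those single-symbol probe sets were called the same way in 6 of the 9 and not called in 3, and none was called the other way. The shared value of the 6 zinc finger genes hides unequal single readings: *Zfp111* fell by 1.95 (8.41 and 8.77 against 6.74 and 6.54, adjusted p = 0.0152), while the other 5 had log2 fold changes of -0.15 to -0.52 and were not called. Of the desmogleins, *Dsg1c* fell by 1.30 (adjusted p = 0.0303), *Dsg1b* was dim and at -0.04, and *Dsg1a* has no reading of its own. *Tubb2b* rose by 1.61 and *Tubb2a* by 0.90 (adjusted p = 0.0103 and 0.0169). *Sp100* alone rose by 1.58 (adjusted p = 0.0135), *Josd1* alone fell by 0.57 (adjusted p = 0.0453) and *Trav12-2* alone rose by 0.73 (adjusted p = 0.0366). *Jpt2* alone stood at -0.40 (adjusted p = 0.0839) and *Trav13-5* alone at 0.44 (adjusted p = 0.0535). Neither *Notch4* (-0.18, adjusted p = 0.284) nor *Sympk* (0.03 and 0.00) was called alone. The differences between shared and single readings were not tested.

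**Figure D4:**
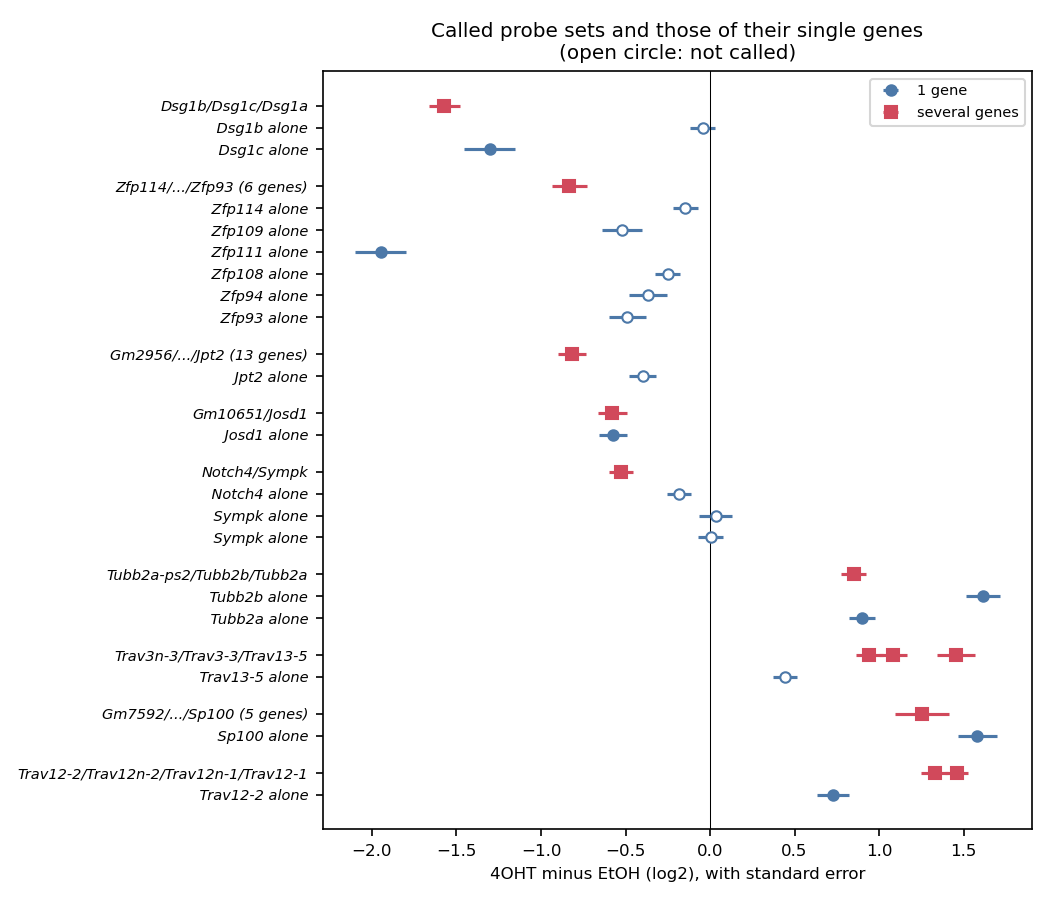
Log2 fold change, 4OHT minus EtOH, with standard error (x axis) of the called shared probe sets (squares; several squares are several probe sets of 1 combination) and of the single-symbol probe sets of their genes (circles, open where not called), for the 9 combinations that have both. *Zfp111* alone lies at -1.95, beyond the shared -0.83, and the 2 readings of *Sympk* alone lie at 0.03 and 0.00.

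The reverse also occurred. A called single-symbol probe set stood beside 34 shared probe sets, and 25 of these, with 12 such genes, were not called. *Glcci1*, a glucocorticoid-induced transcript, rose by 1.53 alone (10.79 to 12.32 in the means, adjusted p = 0.00942), and its shared probe set with *Umad1*, at 8.44 and 8.89 against 9.74 and 9.52, had a log2 fold change of 0.97 that did not pass (adjusted p = 0.0741). *Gbp4*, an interferon-induced GTPase, rose by 1.29 alone (adjusted p = 0.0107), against 0.62 (adjusted p = 0.124) for the probe set of *Gbp4* and 5 further *Gbp* genes. *Trav14-1* rose by 1.21 alone (adjusted p = 0.0271), while a probe set of *Trav14-1* with 4 other segments stood at 0.19. The other cases include shared probe sets that were far brighter than the single-symbol one. The 3 probe sets of *Rpl35*, a ribosomal protein gene, and *Itgam*, the myeloid integrin αM, lay between 12.80 and 12.92 on all arrays with log2 fold changes of -0.04 to -0.01, whereas *Itgam* alone was at 6.62 and 6.56 with EtOH and 7.26 and 7.28 with 4OHT and was called higher (0.68, adjusted p = 0.0239). The non-coding *Malat1* alone rose by 0.73 (adjusted p = 0.0462), and its probe set with *Ramp2*, at 13.83 and 13.82 against 13.88 and 13.72, stood at -0.03. Likewise *H2bc4* alone fell by 0.61 (adjusted p = 0.0439), and the 7 probe sets that list it with 13 or 14 other histone genes, at means of 13.5 to 13.8, had log2 fold changes of 0.03 to 0.05.

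Most families of shared probe sets had no call. The 139 probe sets of ribosomal proteins, nearly all listed with gene models or pseudogenes and with a median level of 13.06, had log2 fold changes of -0.25 to 0.00. They are not separate readings, since combinations recur: *Rps2* with Gm10653 has 17 probe sets, and *Rpl30* with Gm12191 and Gm5481 has 10. Of the 139, 138 were below 0. Both 4OHT arrays were below both EtOH arrays in 82 of the 139, against 8238 of all 35556 probe sets. Yet the median was only -0.05, 1 had an unadjusted p under 0.05 and none was called. The sign depends little on the scaling: 123 of 139 were below 0 after a further quantile normalisation and 139 with equal array medians (medians -0.03 and -0.07). The brightest were *Rplp0* with Gm5779 (13.71 and 13.72 against 13.67 and 13.70) and *Rps2* with Gm10653 (13.72 and 13.72 against 13.67 and 13.68). For the 33 of replication-dependent histones (median level 13.63) the median was 0.03. The 25 of the glycolytic enzyme gene *Gapdh* and its copies, at means of 13.6 to 13.9, all lay between 0.01 and 0.03. The highest values of the arrays were 14.17 to 14.24, and whether differences shrink near them was not tested.

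Among dim families, none of the 166 probe sets of olfactory and pheromone receptors was called (median level 4.90, median 0.07, 10 higher at an unadjusted p under 0.05). The same held for 40 of microRNAs (level 4.01), 42 of small nucleolar and spliceosomal RNAs (level 4.38) and 14 of immunoglobulin segments (level 5.40, median 0.08). Many of the small RNA probe sets repeat each other's values: the medians were -0.13 for microRNAs and -0.05 for small nucleolar RNAs over all, and 0.00 and -0.01 over the 18 and 15 with distinct values. The 4 of haemoglobins, at a median level of 7.30, were not called either (median 0.09). The 26 probe sets of defensins and keratins, mostly of keratin-associated genes and with a median level of 8.21, leaned upwards together: 25 were above 0 (24 under both other scalings), the median was 0.28 and 17 had an unadjusted p under 0.05 (8.44% of all probe sets were higher at this threshold), but none passed the adjustment. *Krtap5-5*, *Krtap5-2* and *Krtap5-4* with Gm4553, the brightest, were at 9.52 and 9.40 against 9.79 and 9.69. Of the 7 interferon-induced probe sets, that of *Ifi211*/*Ifi204* was the 1 called. *Gbp2* with *Gbp2b* stood at 0.47 (adjusted p = 0.0613), and those of *Tgtp2* with *Tgtp1* at -0.48 and -0.33 (adjusted p = 0.221 and 0.472). No detection call comes with these values, and dim probe sets could not be told from background.

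**Figure D5:**
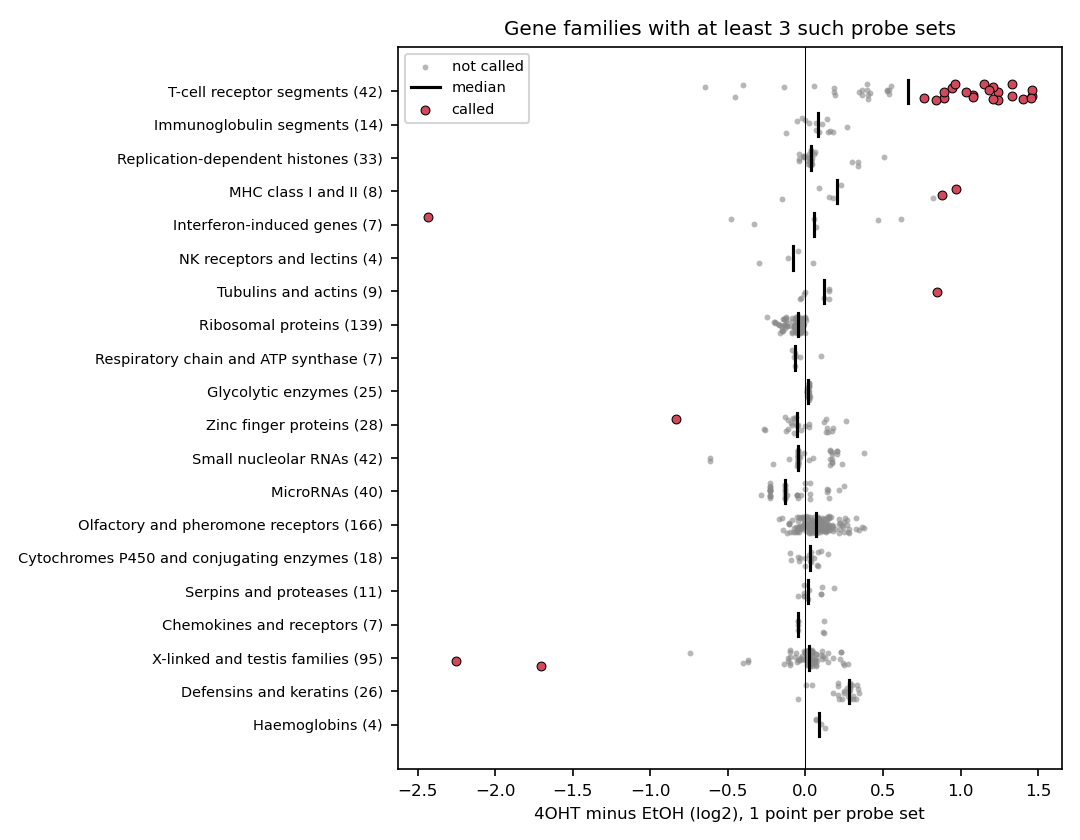
Log2 fold change, 4OHT minus EtOH (x axis), of every probe set in the gene families with at least 3 shared probe sets (number in brackets), 1 point per probe set, with called ones outlined and a bar at the family's median. The T-cell receptor segments hold 21 of the 27 probe sets called higher, whereas 138 of the 139 of ribosomal proteins lie in a narrow band below 0. All 25 of the glycolytic enzymes are of *Gapdh*.

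Over all 35556 probe sets, 2.17% were called lower and 0.987% higher. By class of names, shared-stem probe sets held 36 of the 47 calls, 11 lower and 25 higher of 742 (1.48% and 3.37%), and 21 of the 25 were *Trav*. Those of differing stems held 1 lower and 1 higher of 321 (0.312% each), a count of 2 that was 4 to 6 under the other normalisations, the filter on dim probe sets or an intensity trend, and 28 without the probe sets that have no symbol. None of the 35 with a small RNA beside another gene was called. In this class *Rpl12* with *Snora65*, which lies within it, had the largest decrease with a small RNA, at -0.55 (adjusted p = 0.17). Probe sets of 1 named gene with gene models held 5 lower and 1 higher of 419. Where the listed genes lie on different chromosomes, 4 of 426 were lower and none higher. There both 4OHT arrays lay below both EtOH arrays in 175 probe sets and above in 41, with a median of -0.05. The same counts over all 35556 were 8238 and 10207. Just short of the threshold, at an adjusted p of 0.05 to 0.06, were 9 further probe sets, among them *Ganc* with *Capn3*, which are neighbours (0.52, adjusted p = 0.0501), the X-linked *Slx* and *Slxl1* with 15 gene models (-0.74, adjusted p = 0.0514) and 3 of *Fam177a2* and *Fam177a* (0.44, 0.44 and 0.48). Counted by distinct values, the 20 lower and 27 higher probe sets were 19 and 22.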

How the data were processed

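RNA of 4 samples was hybridised to Affymetrix Mouse Gene ST 1.0 arrays. The authors deposited log2 values per probe set, which the submitters' processing notes tie to Affymetrix Expression Console 1.1 and RMA; the sources used here name no genome build. RMA draws all arrays to a common distribution, so differences are relative to the other probe sets. From there, limma (3.58.1, in R 4.3.3) was run with lmFit and eBayes on all 35556 probe sets, without a filter or block, and p-values were Benjamini-Hochberg adjusted over all of them (2 residual degrees of freedom, 2.66 from the prior). Probe sets listing 2 or more symbols in the array annotation were kept for description. Symbols were updated by Entrez number from RefSeq (GRCm38.p6). Genes shared a stem where at least 2 letters before the first digit, or the first 4 characters or more, were common. A few histone and zinc finger sets with an odd symbol, and the actin pair *Actg1*/*Actb*, thus count as differing stems. The overlapping *Evi2*, *Evi2b* and *Evi2a* count as a shared stem. Genes within 3 places on a chromosome were neighbours. Named probe sets were all 47 called, at most 2 of the brightest in each family, and those of the family lists beside them; further ones were chosen after their values were seen. Members and gene lists were chosen with earlier results of these data known. The fit was tested on simulated data. Alternatives were another normalisation, a filter, a trend, blocks, a stricter threshold, the probe sets without a symbol left out and leaving out each array.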

Additional observations from a re-analysis of the deposited data

How the results depend on the processing

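Against the 20 lower, 27 higher, 36 shared-stem and 2 differing-stem calls, limma without 1 array in turn called 0 to 7 lower, 0 to 16 higher, 0 to 23 shared-stem and 0 differing-stem probe sets; the lone array is then assumed to vary like the arrays of the other treatment. Without EtOH array 1 none was called (81 lower and 80 higher at an unadjusted p under 0.05), without EtOH array 2 none (72 and 84), without 4OHT array 1 7 and 16, and without 4OHT array 2 6 and 3. With the replicate number as a block, 3 lower, 0 higher, 3 shared-stem and 0 differing-stem probe sets were called. Whether a shared number marks a pair of samples is not known. The deviations of same-numbered arrays correlated at -0.134. That value cannot decide it, since with 2 arrays per treatment the deviations mirror each other. The crossed pairing, chosen after seeing the data, gave 11 lower and 26 higher. At an adjusted p under 0.01 there were 6 lower, 4 higher, 10 shared-stem and 0 differing-stem calls. Leaving probe sets without any symbol out of the fit gave 79 lower, 79 higher, 95 shared-stem and 28 differing-stem calls. Differing-stem calls were 4 after quantile normalisation, 4 with equal array medians, 6 with a mean of at least 6 and 5 with an intensity trend. Under these 4 settings the lower (20 to 24), higher (26 to 35) and shared-stem (36 to 44) counts moved by less than 1.5 times, and 46 of the 47 called probe sets were called in each. No called probe set changed sign under any alternative run. The causes of these shifts were not tested.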
